A study of Mus musculus with 16 samples.

Results

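RNA was measured in 8 MC38 tumours of mice, 4 hypoxic (mice 12, 14, 17 and 25) and 4 normoxic (mice 4, 7, 10 and 21), out of 16 tumours in the series. They were chosen by 2 labels, the tumour line and the hypoxia status. MC38 is a mouse colorectal cancer cell line, and the cells were implanted with Matrigel at the right shoulder. All 8 mice had been given immunotherapy against CTLA-4 and PD-1, both of them brakes on T cells, and tumours were collected once imaging on day 5 was done. Hypoxic and normoxic tumours share both the line and this treatment, so no untreated tumour takes part in any comparison. The study design names PET with fluoromisonidazole, a tracer trapped in cells short of oxygen. The tracer uptake and the value that divided the classes were not analysed here, and the strain, sex and age of the mice were not stated in the labels. The other 8 tumours, 3 hypoxic and 5 normoxic, came from E0771, a mouse breast cancer line. Below they serve for a test of the difference between lines. They also enter the standard errors and the mean signal by which genes were tested and classed.

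Cells short of oxygen stabilise the transcription factor HIF-1, which switches on genes of glycolysis, iron uptake and vessel growth. Hypoxic regions of tumours are known for macrophages that clear debris and restrain T cells, and for adenosine made by the ectoenzymes CD39 and CD73. Type I interferons made after the sensing of nucleic acids switch on antiviral genes in most cell types, whereas interferon gamma comes mainly from T cells and NK cells and draws further T cells through CXCR3 chemokines. Macrophages exposed to IL-4 or IL-13 turn to a programme called alternative activation, with arginase, scavenger receptors and chemokines for eosinophils. In RNA of a whole tumour, fewer cells of a type and less RNA per cell cannot be told apart.

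The measurements came from the NanoString mouse PanCancer Immune panel, which counts transcripts of 770 genes with colour-coded probes. The deposited values are a normalized signal, scaled so that 20 housekeeping genes have the same geometric mean in every tumour. Below, the values of a gene are always given for hypoxic tumours 12, 14, 17 and 25 in that order and then for normoxic tumours 4, 7, 10 and 21 in that order. A difference is hypoxic minus normoxic on the log2(signal + 1) scale with its standard error, and a gene is said to have risen or fallen where limma gave an adjusted p under 0.05 over all 712 genes tested. A gene was tested where its mean over the 16 tumours reached 24.0, a level set by the negative-control probes. The other 58 genes were not tested. The 8 MC38 tumours have 8 different mouse numbers. The standard errors rest on the spread within all 4 groups of the 16 tumours, E0771 included. Mouse numbers 4, 12 and 17 occur in both lines, and the labels do not say whether they mark the same mice.

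Before any comparison, 2 tumours lay outside the pattern of their labels. The labels were kept as given, and whether a label of normoxic 10 or hypoxic 17 is wrong was not tested. Over the 712 genes the pair that correlated most of all was normoxic 10 with hypoxic 17 (Pearson r = 0.989 on log2 values), above every pair of like label (0.946 to 0.969 within hypoxic and 0.811 to 0.966 within normoxic tumours). Their values were not copies of each other, and their estimated counts differed by a chi-square of 10.6 per degree of freedom. That was the lowest of any MC38 pair, against at least 29.7 within normoxic and 34.4 within hypoxic tumours. Whether both came from 1 tumour was not tested. The median of all 770 genes was 95.2, 96.7, 127 and 60.9 in hypoxic tumours, against 304, 257, 127 and 221 in normoxic tumours. Normoxic 10 thus had the median of a hypoxic tumour, and the other 3 normoxic tumours lay above every hypoxic one. The estimated counts behind these values ran from 274508 to 776181 in hypoxic and from 445458 to 890239 in normoxic tumours.

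A list of 23 tested genes is known mainly from liver, germline and other tissues, apart from 3 interferon alpha genes and the mast cell chymase gene Cma1. It was lower in hypoxic tumours as well. The list, of which 22 fell against 48% of all genes tested (median -2.85), had a median signal of 11.4, 8.27, 19.7 and 4.97 in hypoxic tumours, against 93.5, 178, 18.7 and 120.2 in normoxic tumours. Their summed signal was 624, 347, 802 and 225 in hypoxic tumours, against 5126, 6087, 766 and 3883 in normoxic tumours. Without the 3 interferon alpha genes and Cma1, a choice made after seeing the data, 18 of 19 genes fell (median -2.85) and the sums were 312, 219.9, 415 and 124 in hypoxic tumours, against 2089.9, 3455, 391 and 2109.6 in normoxic tumours. Normoxic 4, 7 and 21 stood apart from the other 5 tumours in each of these measures. The negative-control probes, multiplied by the factor of each tumour, did not: they averaged 2.86, 6.82, 2.96 and 5.90 in hypoxic tumours, against 6.13, 5.42, 2.69 and 6.68 in normoxic tumours. The lowest value of the 23 genes was 1.24, in hypoxic 25, below the scaled negative-control mean of that tumour. The deposited values hold no 0, since values under 1 were raised to 1. As an example, F12, the clotting factor XII gene of the liver, had 4.09, 3.31, 12.5 and 4.97 in hypoxic tumours, against 90.5, 147, 18.7 and 84.2 in normoxic tumours. Members such as F12, Mbl2 and Ambp reached the test level of 24.0 only through the normoxic MC38 tumours. Their means in hypoxic MC38 and in both groups of E0771 tumours were below it. The same holds for genes of other lists, among them Prg2, Cxcr1, Klra3, Ms4a1, Fcer2a, Cd40lg, H2-Q1, Ifi44l and Il9. The counts of list members that fell are thus in part set by how genes entered the test. The tissue-restricted genes differed in the same direction as most groups described below, and their part in those results was not tested. The labels give no cartridge, run or RNA purity for these tumours, so a difference in any of them between normoxic 4, 7 and 21 and the rest was not tested either.

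**Figure D1:**
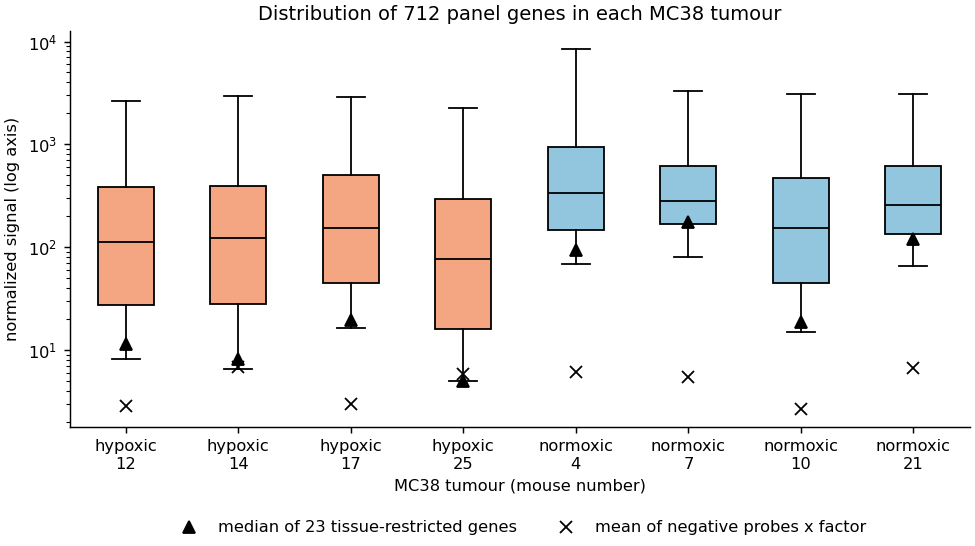
Normalized signal of the 712 genes tested in each MC38 tumour on a log axis, with hypoxic tumours on the left. Boxes span the quartiles with the median as a line, whiskers the 5th to 95th percentile, triangles the median of 23 tissue-restricted genes and crosses the scaled mean of the negative-control probes. The triangles lie at 4.97 to 19.7 in hypoxic tumours and normoxic 10, and at 93.5 to 178 in normoxic 4, 7 and 21.

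The panel as a whole shifted downwards in hypoxic MC38 tumours. Of the 712 genes, 342 fell (48%) and 4 rose (0.562%), which is 48.6% in either direction, and the median difference of all genes was -1.27. In 173 genes (24.3%) every hypoxic tumour lay below every normoxic one, and 137 of these were among the 342 that fell. Without normoxic 10 and hypoxic 17 the counts were 408 lower and 12 higher. Normoxic 10 was the lowest normoxic tumour in 337 of the 342, and hypoxic 17 was the highest hypoxic one in 277. Hypoxic 17 exceeded normoxic 10 in 184 of the 342. The highest normoxic value belonged to tumour 4 in 188 of these genes and to tumour 7 in 148. Of the 342 genes, 157 (45.9%) passed in each of 8 fits that left out 1 MC38 tumour. None of the 20 housekeeping genes passed (-0.64 to 0.58), which the scaling fixes on average.

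The fall was larger for probes of weak signal. Among 111 genes with a mean signal under 50, 94 fell (84.7%, median -2.57). From 50 to 100 it was 70 of 100 genes (median -1.99), and from 100 to 300 it was 93 of 203 (45.8%, median -1.12). Among 180 genes from 300 to 1000, 52 fell (28.9%, median -0.76), and among 118 genes of 1000 or more, 33 fell (28.0%, median -0.41). Signal depends on the probe as well as the transcript, so these classes order probes and not genes by abundance. Both the classes and the test level of 24.0 rest on the mean over all 16 tumours, normoxic MC38 tumours included. A weak gene could therefore enter the test through normoxic MC38 tumours alone. F12 did so, with a mean of 85.2 there, 6.2 in hypoxic MC38, 7.3 in hypoxic E0771 and 11.9 in normoxic E0771 tumours. The shares that fell among weak probes are thus in part set by this choice. A difference can also be read relative to the median gene of each tumour, which adds 1.12 to every MC38 difference. On that scale 115 genes were lower (16.2%), all of them among the 342, and 75 were higher (10.5%). Both readings are given for each list below, because the direction of some lists depends on the choice.

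**Figure D2:**
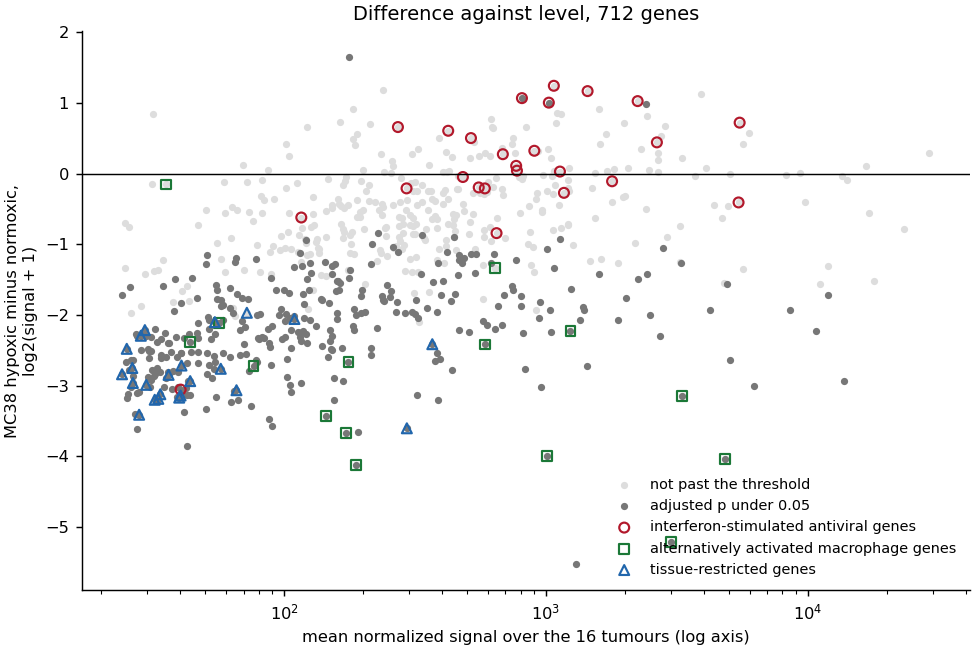
Difference between hypoxic and normoxic MC38 tumours (log2(signal + 1)) against the mean signal of each of 712 genes over the 16 tumours (log axis). Dark dots passed the test. Tissue-restricted genes (triangles) lie between -3.60 and -1.97 at mostly weak signal. Alternatively activated macrophage genes (squares) reach down to -5.22, at mean signals that include the high normoxic MC38 values. Interferon-stimulated antiviral genes (circles) spread around a median of 0.11.

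Msln rose most of the 4 genes that rose. It encodes mesothelin, a surface protein of mesothelium and of some carcinomas, and had 444, 668, 427 and 375 in hypoxic tumours, against 55.2, 109.9, 466 and 167 in normoxic tumours. The hypoxic tumours were within a narrow range, and normoxic 10 lay among them while the other 3 normoxic tumours lay far below. Its difference was 1.65 ± 0.62 (adjusted p = 0.0361, limma). Over the 8 fits without 1 tumour it ranged from 1.19 to 2.20 and passed in 1 of them, the fit without normoxic 10. The other carcinoma genes measured did not follow Msln. Cdh1, the E-cadherin gene, fell by 2.60 ± 1.04 (adjusted p = 0.0486), with 71.9, 23.1, 36.8 and 12.4 in hypoxic tumours, against 715, 207, 53.1 and 147 in normoxic tumours. Epcam, an adhesion gene of epithelium, had 46.6, 14.9, 16.4 and 3.73 in hypoxic tumours, against 73.6, 121, 21.6 and 78.8 in normoxic tumours, a difference of -2.01 ± 1.15 that did not pass. Muc1 stayed under the test level. In hypoxic 25 Epcam lay below the scaled mean of the negative-control probes.

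C1qbp, a mitochondrial protein that binds the complement component C1q, rose by 0.98 ± 0.38 (adjusted p = 0.0440). Its signal was 3249.6, 3923, 3044 and 4393 in hypoxic tumours, against 829.5, 1833, 3161 and 2349 in normoxic tumours. All hypoxic tumours exceeded normoxic 4, 7 and 21, and normoxic 10 exceeded hypoxic 17. The remaining 2 genes that rose, Oasl1 and Ifi35, belong to the interferon-stimulated genes. Oasl1, an antiviral protein of the oligoadenylate synthetase family, had 1143, 1676, 1444 and 2049 in hypoxic tumours, against 391, 506, 1769.6 and 839 in normoxic tumours, a difference of 1.07 ± 0.42 (adjusted p = 0.0430). Ifi35, an interferon-induced protein of the cytoplasm, had 1358, 1604, 1255 and 1671 in hypoxic tumours, against 357, 575, 1402 and 979 in normoxic tumours, a difference of 1.0 ± 0.36 (adjusted p = 0.0292). For both genes normoxic 10 was the one normoxic tumour inside the hypoxic range. C1qbp and Oasl1 passed in 2 of the 8 fits without 1 tumour and Ifi35 in 3.

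The interferon-stimulated antiviral genes were the list with the highest median. Of 25 tested, 2 rose, 1 fell and 22 did not pass, with a median of 0.11. Over all genes 0.562% rose, 48% fell and the median was -1.27. With a mean signal of 300 or more none of 21 antiviral genes fell, against 85 of 298 over the panel. The list median per tumour was 1105, 766, 951 and 945 in hypoxic tumours, against 451, 691, 1067 and 909 in normoxic tumours, which overlap. Rsad2, the antiviral enzyme viperin, had 2013, 1501, 2782 and 2509 in hypoxic tumours, against 261, 622, 3185 and 1303 in normoxic tumours. Normoxic 10 was the highest of all 8 tumours and normoxic 4 the lowest, and the difference of 1.24 ± 0.55 did not pass (adjusted p = 0.0675). Isg15, a ubiquitin-like protein attached to viral and host proteins, had 3655, 3189, 4038 and 4788 in hypoxic tumours, against 586, 1799, 4674 and 2669 in normoxic tumours and a difference of 1.02 ± 0.50 (adjusted p = 0.0986). Normoxic 4 was again the lowest tumour, and normoxic 10 was below hypoxic 25 only. Isg15 was named after its values were seen. The 1 gene that fell, Ifi44l, had 9.81, 6.61, 28.9 and 4.97 in hypoxic tumours, against 112, 211, 24.4 and 115 in normoxic tumours and fell by 3.06 ± 0.76 (adjusted p = 0.00812). Relative to the median gene 12 of the 25 were higher (10.5% of all genes were) and 1 lower, with a median of 1.23.

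The promoters of 3 of these genes and of Pdcd1lg2, described below, are shown because they carry letters known for the transcription factors of the interferon and IL-4 pathways. They are RefSeq sequences of assembly GRCm38.p6, from 250 bases before to 50 bases after the gene start, 5′ to 3′ on the strand of the gene. Capitals mark matches on either strand to GAAA followed after any 2 letters by GAAA, a core of the interferon-stimulated response element, to GCGTG or ACGTG, cores of the HIF response element, or to TTC followed after any 4 letters by GAA, a site of the kind STAT6 binds.
Rsad2, chr12:26456403-26456702, minus strand: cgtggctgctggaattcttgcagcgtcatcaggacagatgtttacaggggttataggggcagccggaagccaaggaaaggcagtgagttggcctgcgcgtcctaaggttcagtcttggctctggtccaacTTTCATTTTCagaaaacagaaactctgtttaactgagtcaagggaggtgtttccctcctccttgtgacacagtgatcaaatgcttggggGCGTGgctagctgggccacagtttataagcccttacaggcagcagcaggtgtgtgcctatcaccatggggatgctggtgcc
Isg15, chr4:156200769-156201068, minus strand: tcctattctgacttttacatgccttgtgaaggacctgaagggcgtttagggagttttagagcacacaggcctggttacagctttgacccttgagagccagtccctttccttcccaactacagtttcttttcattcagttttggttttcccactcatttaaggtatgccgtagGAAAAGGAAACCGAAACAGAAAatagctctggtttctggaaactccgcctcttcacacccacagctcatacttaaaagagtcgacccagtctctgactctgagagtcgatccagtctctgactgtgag
Cxcl10, chr5:92348840-92349139, minus strand: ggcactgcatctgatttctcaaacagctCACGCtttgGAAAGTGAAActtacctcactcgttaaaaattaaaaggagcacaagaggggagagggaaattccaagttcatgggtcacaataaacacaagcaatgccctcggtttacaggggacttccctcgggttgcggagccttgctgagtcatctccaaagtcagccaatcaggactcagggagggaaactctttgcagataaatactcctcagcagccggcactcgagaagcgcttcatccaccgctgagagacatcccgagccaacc
Pdcd1lg2, chr19:29410669-29410968, plus strand: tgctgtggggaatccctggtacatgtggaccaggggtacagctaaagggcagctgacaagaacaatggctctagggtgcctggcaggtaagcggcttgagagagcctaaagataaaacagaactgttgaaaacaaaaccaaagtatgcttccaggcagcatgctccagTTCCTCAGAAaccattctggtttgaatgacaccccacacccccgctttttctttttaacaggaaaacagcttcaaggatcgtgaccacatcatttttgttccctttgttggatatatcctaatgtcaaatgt
The double GAAA motif matched once each in Rsad2 and Cxcl10, and 3 overlapping matches made up the capitals of Isg15. Rsad2 and Cxcl10 also held 1 GCGTG match each, and Pdcd1lg2 held 1 TTC to GAA match. Of 27025 RefSeq promoters of this length, 3.49% held the double GAAA motif, 32.5% GCGTG, 19.7% ACGTG and 6.99% the TTC to GAA motif. Over the 571 promoters found for panel genes the shares were 8.06%, 34.9%, 17.2% and 7.88%. Over the 255 of genes that fell they were 5.88%, 27.5%, 15.7% and 10.2%, and over the 61 of genes higher relative to the median gene 9.84%, 54.1%, 19.7% and 3.28%. These shares are descriptions, and no difference between them was tested. The promoters of Oasl1, Ifi35, C1qbp and Chil3 held none of these letters. A match describes the sequence and does not show that a factor binds there.

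Of 14 genes for type I interferons, their receptors and their sensors, 9 fell (64.3%, against 48% of all genes) and none rose (median -1.14, and -0.02 relative to the median gene). Ifna1, an interferon alpha gene, had 60.5, 29.8, 168 and 42.2 in hypoxic tumours, against 941, 1667, 181 and 1054 in normoxic tumours and fell by 3.60 ± 0.94 (adjusted p = 0.00845). Ifnl2, an interferon lambda gene, had 14.7, 11.6, 34.2 and 12.4 in hypoxic tumours, against 184, 400.5, 40.9 and 271 in normoxic tumours and fell by 3.29 ± 0.71 (adjusted p = 0.00732). In both, normoxic 4, 7 and 21 were far above all other tumours, while normoxic 10 was close to hypoxic 17. The 3 interferon alpha genes of this list are also members of the tissue-restricted list described above, and without them 6 of 11 genes fell (median -0.99). Ddx58, the RNA sensor RIG-I and itself an interferon-stimulated gene, was at 0.32 ± 0.37 and did not pass.

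Of 15 genes of interferon gamma, its receptors and the CXCR3 chemokines downstream of it, 7 fell (46.7%, against 48% of all genes) and none rose (median -0.52, and 0.61 relative to the median gene). Ifng itself had 15.5, 6.61, 22.3 and 3.73 in hypoxic tumours, against 78.2, 103, 25.9 and 68.1 in normoxic tumours. Every hypoxic tumour lay below every normoxic one, and the gene fell by 2.53 ± 0.63 (adjusted p = 0.00812). Gbp2b, an interferon-induced GTPase, fell by 2.88 ± 0.77 (adjusted p = 0.00956). None of the 3 CXCR3 ligands passed. Cxcl10 had 8784, 6067, 11282 and 8592 in hypoxic tumours, against 857, 3572, 10950.1 and 6899 in normoxic tumours, a difference of 1.12 ± 0.59 (adjusted p = 0.120), and Cxcl11 had 464, 511, 558 and 491 in hypoxic tumours, against 58.3, 201, 549 and 375 in normoxic tumours, a difference of 1.18 ± 0.58 (adjusted p = 0.0992). Normoxic 4 was the lowest tumour for both, and normoxic 10 lay within the hypoxic range. Cxcl9, the ligand that depends most on interferon gamma, had 664, 494, 946 and 364 in hypoxic tumours, against 606, 376, 680.1 and 787 in normoxic tumours, with all normoxic tumours inside the hypoxic range (-0.03 ± 0.72).

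**Figure D3:**
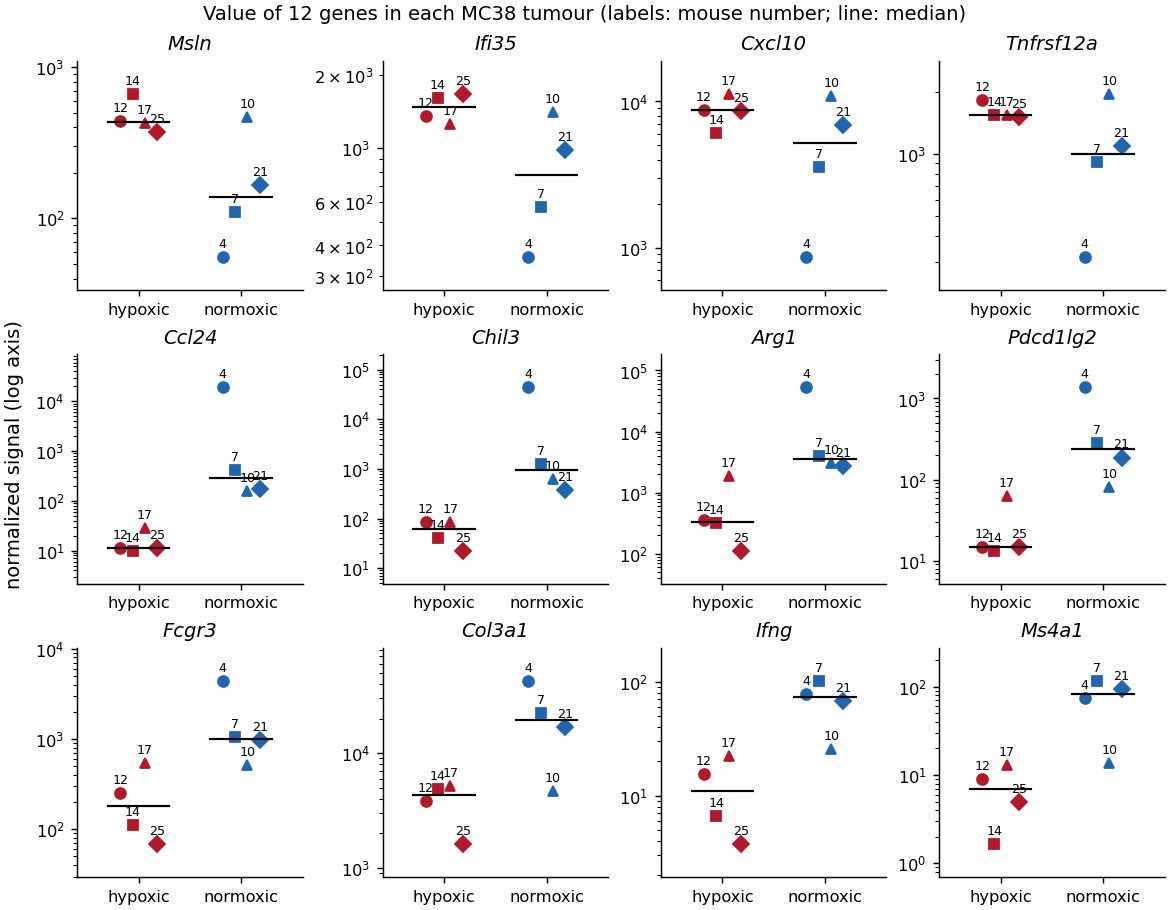
Normalized signal (log axis) of 12 genes in each MC38 tumour, hypoxic on the left and normoxic on the right of each panel, with mouse numbers as labels and the group median as a line. In the upper row normoxic 4 is the lowest tumour. In the second row every hypoxic tumour lies below every normoxic one, with normoxic 4 highest, and in the Col3a1 and Ms4a1 panels normoxic 10 sits beside the hypoxic tumours.

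Antigen presentation was measured in both of its branches. For MHC class I, which displays peptides of the cell's own proteins, 3 of 16 genes fell (18.8%, against 48% of all genes) and none rose. The median was -0.05, and 1.07 relative to the median gene, where 7 were higher. With a mean signal of 300 or more none of 11 fell, against 85 of 298 over the panel. The 3 that fell included H2-Q1 (-3.13 ± 0.71) and H2-Q10 (-2.76 ± 0.66), non-classical class I genes of weak signal. Psmb10, a subunit of the immunoproteasome, had 1786, 2483, 1797 and 2231 in hypoxic tumours, against 595, 1024, 1862 and 1516 in normoxic tumours, and its difference of 0.84 ± 0.40 did not pass (adjusted p = 0.0904). All hypoxic tumours exceeded normoxic 4, 7 and 21, and normoxic 10 lay within the hypoxic range. MHC class II displays captured proteins and is carried mainly by macrophages, dendritic cells and B cells. Of its 10 genes 7 fell, or 70% against 48% of all genes (median -1.82, and -0.70 relative to the median gene). H2-DMb2, a peptide exchange factor, had 21.2, 19.8, 41.4 and 13.7 in hypoxic tumours, against 416, 272, 43.1 and 209.8 in normoxic tumours and fell by 2.96 ± 0.62 (adjusted p = 0.00732). H2-Ob, which restrains that exchange, fell by 2.83 ± 0.69, and H2-DMb1, the close paralogue of H2-DMb2, was at -0.74 ± 0.46 without passing. Probes of such copies may share transcripts, so the values of H2-DMb1 and H2-DMb2 are uncertain.

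Alternatively activated macrophage genes held several of the largest falls. Of 15 tested, 13 fell (86.7%, against 48% of all genes) and none rose. The median was -2.72, and -1.60 relative to the median gene, where 9 were still lower. Chil3, a chitinase-like protein secreted by these macrophages, had 86.6, 39.7, 83.5 and 22.4 in hypoxic tumours, against 44286, 1258, 636 and 378 in normoxic tumours. The lowest normoxic tumour was above the highest hypoxic one by 2.11 on the log2 scale, and normoxic 4 exceeded all other tumours by far. The mean of Chil3 over the 16 tumours, 3003, rests mostly on normoxic 4. In E0771 the means were 122 in hypoxic and 179 in normoxic tumours. Arg1, the arginase that removes arginine around T cells, had 351, 324, 1881 and 112 in hypoxic tumours, against 53233, 3969, 3107 and 2734 in normoxic tumours, with hypoxic 17 as the highest hypoxic tumour. Cd163, a scavenger receptor for haemoglobin, had 58.8, 97.5, 232 and 17.4 in hypoxic tumours, against 12771, 1032, 374 and 333 in normoxic tumours. Cd163, like Mrc1 below, was named after its values were seen. Chil3 fell by 5.22 ± 1.04 (adjusted p = 0.00732), Arg1 by 4.04 ± 1.01 (adjusted p = 0.00812) and Cd163 by 4.00 ± 0.99 (adjusted p = 0.00812). Without normoxic 4 the differences were -3.71 for Chil3, -3.03 for Arg1 and -2.83 for Cd163, and all 3 passed whichever of the 8 tumours was left out.

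Pdcd1lg2, the gene of PD-L2, a ligand of PD-1, is known to be induced by IL-4 and had 14.7, 13.2, 62.4 and 14.9 in hypoxic tumours, against 1377, 285, 80.4 and 187 in normoxic tumours. Hypoxic 12, 14 and 25 were close to each other at a low level, hypoxic 17 was above them, and all were below normoxic 10. It fell by 3.68 ± 0.75 (adjusted p = 0.00732). Mrc1, the mannose receptor, had 433, 739, 1267 and 207 in hypoxic tumours, against 29823, 4419.6, 1634 and 2422 in normoxic tumours and fell by 3.15 ± 0.79. Cd209e, a C-type lectin, had 16.3, 16.5, 55.2 and 4.97 in hypoxic tumours, against 1973, 398, 71.8 and 163 in normoxic tumours and fell by 4.12 ± 0.98. Marco, a scavenger receptor for bacteria, stood outside this group at -0.16 ± 0.73, with 18.0, 18.2, 13.1 and 14.9 in hypoxic tumours, against 59.8, 8.67, 5.75 and 30.7 in normoxic tumours. It did not pass, and the direction was reversed without normoxic 4 (0.41), without normoxic 21 (0.10) and relative to the median gene (0.97).

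Genes that recruit eosinophils and carry type 2 immunity had the lowest median of all lists. Of 14 tested, 10 fell (71.4%, against 48% of all genes) and none rose (median -3.03, and -1.91 relative to the median gene). In 9 of the 14 the groups did not overlap, against 24.3% of all genes. The 8 members with a mean signal under 300 had a median of -3.35 and 7 fell, against -1.81 and 257 of 414 over the panel. The 6 at 300 or more had a median of -1.33 and 3 fell, against -0.64 and 85 of 298. Ccl24 is among these 6 mostly through normoxic 4. Its means were 15.2 in hypoxic MC38, 39.2 in hypoxic E0771 and 139 in normoxic E0771 tumours. Ccl24, the eosinophil chemokine eotaxin-2, had 11.4, 9.92, 28.3 and 11.2 in hypoxic tumours, against 19165, 412, 160.2 and 172 in normoxic tumours. It fell by 5.53 ± 1.11 (adjusted p = 0.00732). Without normoxic 4 it fell by 3.93. Prg2, the major basic protein of eosinophil granules, had 12.3, 4.96, 15.8 and 1.24 in hypoxic tumours, against 186, 179, 30.2 and 122 in normoxic tumours and fell by 3.85 ± 0.80 (adjusted p = 0.00732). Normoxic 10 was the lowest normoxic tumour for both, yet above every hypoxic one. In hypoxic 14 and 25 Prg2 lay below the scaled mean of the negative-control probes. Il1rl1, the receptor of IL-33, ran the other way at 0.92 ± 0.64 without passing (adjusted p = 0.228), with 3891, 3055, 4583 and 2894 in hypoxic tumours, against 1429, 636, 5404 and 2505 in normoxic tumours, and relative to the median gene it was higher.

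Of 25 receptors and chemokines of monocytes and granulocytes 15 fell (60.0%, against 48% of all genes) and none rose (median -1.72, and -0.60 relative to the median gene). Of the 15 of these genes with a mean signal of 300 or more 10 fell, against 85 of 298 over the panel. Ccl8, a monocyte chemokine, had 2079, 5707, 6901 and 1074 in hypoxic tumours, against 97132, 27624, 8842 and 12649.8 in normoxic tumours and fell by 2.93 ± 0.72 (adjusted p = 0.00812). Ccl9, a chemokine of myeloid cells, had 1187, 1213, 3199.7 and 573 in hypoxic tumours, against 44521, 9666, 3658 and 7093 in normoxic tumours and fell by 3.01 ± 0.68 (adjusted p = 0.00732). Both were highest in normoxic 4, and in both all hypoxic tumours lay below all normoxic ones. Ccl8 and Ccl9 were named after their values were seen, as were the next 3 genes and Fcgr2b, which all have a mean signal of 1000 or more.

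Csf1r, the growth factor receptor that defines macrophages, had 386, 1081, 998 and 243 in hypoxic tumours, against 8866, 2023, 1026 and 1721 in normoxic tumours. It fell by 2.07 ± 0.68 (adjusted p = 0.0220), with hypoxic 14 and 17 at the level of normoxic 10. Cd68, a lysosomal protein of macrophages, had 792, 1787, 1592 and 599.9 in hypoxic tumours, against 9120.1, 2503, 1484 and 2025 in normoxic tumours and fell by 1.42 ± 0.52 (adjusted p = 0.0342). C1qb, a chain of C1q made by macrophages, had 1669, 3249, 3499 and 1002 in hypoxic tumours, against 14949.7, 6007, 2677 and 5945 in normoxic tumours and fell by 1.56 ± 0.56 (adjusted p = 0.0293). These 3 markers passed in 3 to 5 of the 8 fits without 1 tumour, whereas Ccl8 and Ccl9 passed in all 8. Relative to the median gene Csf1r (-0.95), Cd68 (-0.29) and C1qb (-0.44) did not pass, while Ccl8 (-1.81) and Ccl9 (-1.89) did.

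Among the granulocyte receptors, Cxcr1 and Cxcr2 bind the chemokines that draw neutrophils. Cxcr1 had 5.72, 1.65, 14.5 and 2.48 in hypoxic tumours, against 93.5, 146, 22.98 and 62.8 in normoxic tumours and fell by 3.61 ± 0.81 (adjusted p = 0.00732), and Cxcr2 fell by 3.21 ± 0.80 (adjusted p = 0.00812). For Cxcr1 hypoxic 14 and 25 lay below the scaled mean of the negative-control probes, which makes the size of that fall uncertain. Cxcl1, one of their ligands, was at 0.69 ± 0.61 without passing (adjusted p = 0.331), with 379.9, 623, 376 and 449.6 in hypoxic tumours, against 218, 218, 322 and 379 in normoxic tumours. Of 9 Fc receptor genes 5 fell, or 55.6% against 48% of all genes (median -1.96, and -0.83 relative to the median gene). Fcgr2b, the inhibitory receptor for IgG, had 1177, 1418, 2828 and 487 in hypoxic tumours, against 33121, 7028, 3145 and 4694 in normoxic tumours and fell by 2.64 ± 0.68 (adjusted p = 0.00845). Fcgr3, an activating receptor for IgG, had 253, 112, 540.2 and 68.3 in hypoxic tumours, against 4422, 1039, 512 and 978 in normoxic tumours and fell by 2.77 ± 0.74 (adjusted p = 0.00956), and here hypoxic 17 exceeded normoxic 10. Fcgr1, the high-affinity receptor, did not pass (-0.73 ± 0.44).

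Of 12 classically activated macrophage genes 6 fell (50%, near the 48% of all genes tested) and none rose (median -1.43, and -0.31 relative to the median gene, where 1 was lower). Il12b, a chain of IL-12 and IL-23, had 14.7, 23.1, 45.3 and 8.69 in hypoxic tumours, against 144, 279, 25.9 and 195 in normoxic tumours and fell by 2.57 ± 0.69 (adjusted p = 0.00956). Cd86, a ligand of CD28 and CTLA-4, fell by 1.96 ± 0.64 (adjusted p = 0.0206). Nos2, the inducible nitric oxide synthase, had 62.9, 94.2, 131 and 58.4 in hypoxic tumours, against 405, 149, 119.9 and 155 in normoxic tumours, and its difference of -1.15 ± 0.49 did not pass (adjusted p = 0.0611). Ptgs2, the cyclooxygenase COX-2, was at 0.23 ± 0.80. The dendritic cell list had 11 of 15 genes that fell, or 73.3% against 48% of all genes (median -1.97, and -0.85 relative to the median gene). Under a mean signal of 300 it was 9 of 12, against 257 of 414 over the panel. Ccl17, a chemokine that draws CCR4-bearing T cells, had 7.35, 11.6, 20.4 and 4.97 in hypoxic tumours, against 307, 159, 25.9 and 138 in normoxic tumours and fell by 3.44 ± 0.78 (adjusted p = 0.00732), and Flt3, a receptor needed for dendritic cell development, fell by 2.90 ± 0.61. The ligand of that receptor, Flt3l, was at -0.55 ± 0.38 without passing.

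**Figure D4:**
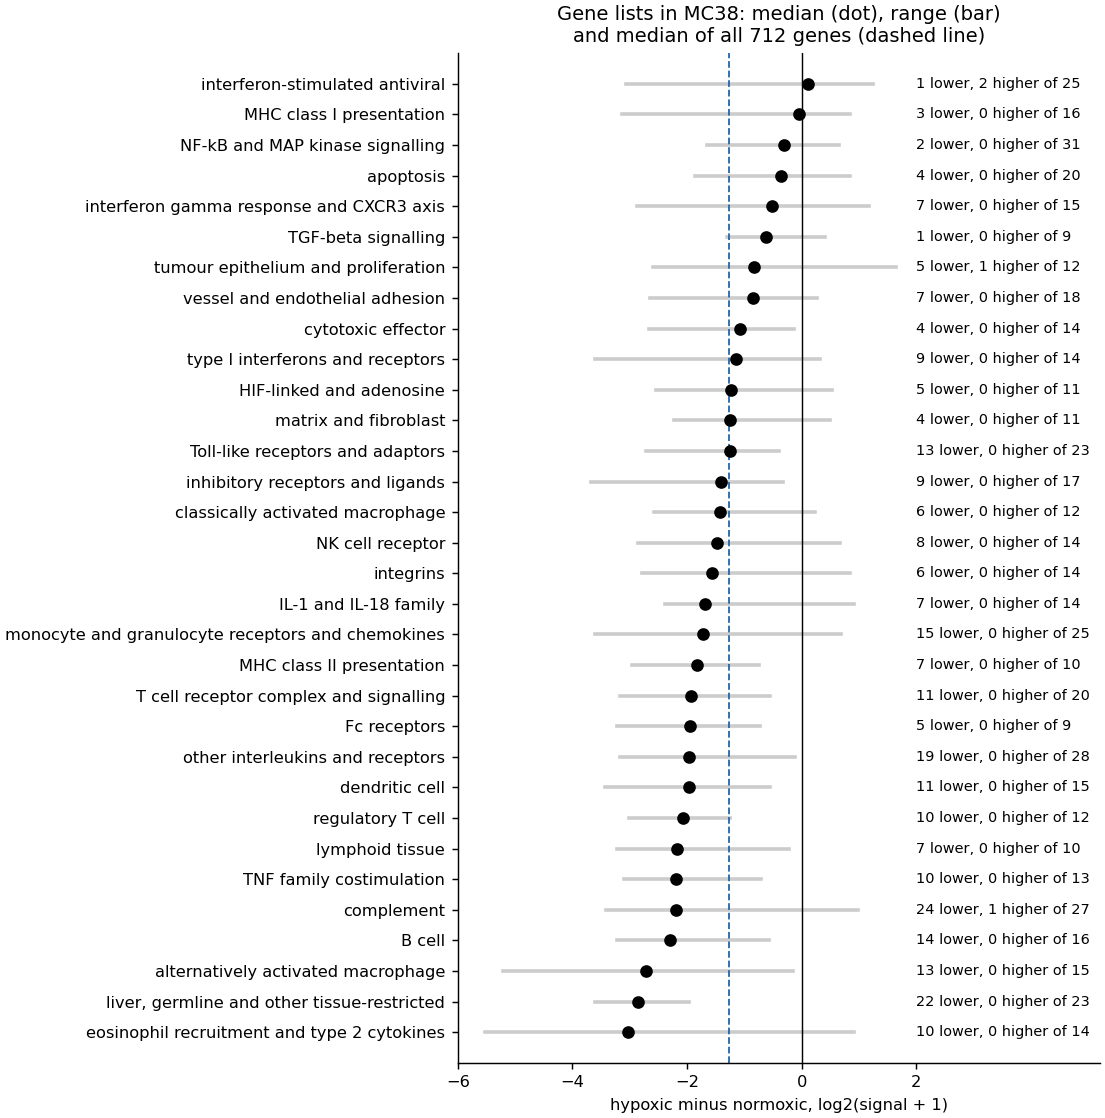
Differences between hypoxic and normoxic MC38 tumours (log2(signal + 1)) in 32 gene lists, with the list median as a dot, the range of its genes as a bar and the median of all 712 genes, -1.27, as a dashed line. Counts at the right give the genes that passed in each direction. Antiviral genes (0.11) and MHC class I genes (-0.05) lie at the top, and tissue-restricted (-2.85) and eosinophil and type 2 genes (-3.03) at the bottom.

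Of 20 genes of the T cell receptor complex and its signalling 11 fell and none rose (median -1.93, and -0.81 relative to the median gene). That is 55%, near the 48% of all genes, and among genes with a mean signal under 300 it was 11 of 18, against 257 of 414 over the panel. Only 2 of the 20 had a mean signal of 300 or more, and neither of these fell. Cd3e, a chain of the receptor complex, had 31.9, 61.2, 50.6 and 19.9 in hypoxic tumours, against 132, 136, 79.0 and 143 in normoxic tumours. All hypoxic tumours lay below all normoxic ones, and the gene fell by 1.64 ± 0.66 (adjusted p = 0.0491), but it passed in 1 of the 8 fits without 1 tumour. The other chains measured, Cd3d (-1.37, adjusted p = 0.122) and Cd3g (-1.70, adjusted p = 0.105), did not pass. Cd2, an adhesion receptor of T cells, had 11.4, 6.61, 36.1 and 7.45 in hypoxic tumours, against 164, 221, 28.7 and 176 in normoxic tumours and fell by 3.17 ± 0.77 (adjusted p = 0.00812). Cd5, a surface receptor that damps T cell receptor signals, had 19.6, 13.2, 25.6 and 14.9 in hypoxic tumours, against 106, 171, 39.5 and 135 in normoxic tumours and fell by 2.42 ± 0.67 (adjusted p = 0.0112). Cd4 marks helper T cells and fell by 2.24 ± 0.63 (adjusted p = 0.0120). Cd8a marks cytotoxic T cells and was at -1.65 ± 0.70 without passing (adjusted p = 0.0585), with 38.4, 44.6, 99.2 and 21.1 in hypoxic tumours, against 127, 166, 112 and 158 in normoxic tumours. Tcf7, a transcription factor of memory-like T cells, was at -0.56 ± 0.44.

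Of 14 cytotoxic effector genes 4 fell (28.6%, against 48% of all genes) and none rose. The median of -1.08 turned to 0.04 relative to the median gene. Tbx21, the transcription factor T-bet, had 12.3, 19.8, 26.9 and 11.2 in hypoxic tumours, against 132, 236, 28.0 and 166 in normoxic tumours and fell by 2.66 ± 0.61 (adjusted p = 0.00732). Prf1, which encodes the pore-forming perforin, had 93.2, 217, 136 and 99.4 in hypoxic tumours, against 156, 116, 168 and 129.6 in normoxic tumours. Its groups overlapped throughout, at -0.13 ± 0.48. Gzmb, the granzyme B gene, had 196, 124, 277 and 139 in hypoxic tumours, against 377, 259, 322 and 354 in normoxic tumours and did not pass (-0.89 ± 0.58). Among 14 NK cell receptor genes 8 fell, or 57.1% against 48% of all genes (median -1.48, and -0.36 relative to the median gene). Klra3 and Klrb1c, both surface receptors of NK cells, fell by 2.86 ± 0.76 and 2.58 ± 0.67. Cd160, a receptor shared by NK cells and cytotoxic T cells, had 14.7, 18.2, 28.9 and 13.7 in hypoxic tumours, against 88.9, 156, 44.5 and 89.5 in normoxic tumours and fell by 2.20 ± 0.54 (adjusted p = 0.00812). Klra4, an activating Ly49 receptor, was at 0.66 ± 0.47 without passing, with 308, 281, 202 and 193 in hypoxic tumours, against 73.6, 182, 199.7 and 198 in normoxic tumours. The Klra genes are a family of close copies, so their probes may not separate them.

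Of 12 regulatory T cell genes 10 fell (83.3%, against 48% of all genes) and none rose (median -2.06, and -0.94 relative to the median gene). Ccr4, a homing receptor, had 4.90, 8.27, 14.5 and 8.69 in hypoxic tumours, against 113, 153, 19.4 and 96.2 in normoxic tumours and fell by 3.02 ± 0.70 (adjusted p = 0.00770). Tnfrsf18, which encodes GITR, had 18.0, 4.96, 17.1 and 6.21 in hypoxic tumours, against 106, 98.3, 25.1 and 69.5 in normoxic tumours and fell by 2.59 ± 0.59 (adjusted p = 0.00732). Neither defining gene of the lineage passed. Foxp3, its transcription factor, had 8.17, 8.27, 5.91 and 3.73 in hypoxic tumours, against 62.9, 10.1, 7.18 and 18.7 in normoxic tumours (-1.34 ± 0.68, adjusted p = 0.107), so that only normoxic 4 and 21 were clearly above the other tumours. Il2ra, the high-affinity chain of the IL-2 receptor, was at -1.25 ± 0.63 (adjusted p = 0.108). None of these 12 genes had a mean signal of 300 or more, and under that level 257 of 414 genes of the panel fell.

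B cell genes fell in 14 of 16 cases, or 87.5% against 48% of all genes (median -2.30, and -1.18 relative to the median gene). Of the 15 with a mean signal under 300, 13 fell, against 257 of 414 over the panel. Ms4a1, which encodes CD20, had 8.99, 1.65, 13.1 and 4.97 in hypoxic tumours, against 73.6, 117, 13.7 and 93.5 in normoxic tumours and fell by 3.10 ± 0.78 (adjusted p = 0.00812). Its values in hypoxic 14 and 25 lay below the scaled mean of the negative-control probes. Tnfrsf13b, the receptor TACI, had 16.3, 13.2, 17.7 and 8.69 in hypoxic tumours, against 144, 132, 30.9 and 78.8 in normoxic tumours and fell by 2.52 ± 0.59 (adjusted p = 0.00770). In both genes normoxic 10 was the lowest normoxic tumour and above every hypoxic one. Pou2f2, a transcription factor of B cells, was at -0.56 ± 0.59 without passing. Of 10 lymphoid tissue genes 7 fell, or 70% against 48% of all genes (median -2.17, and -1.05 relative to the median gene). Ccl19, a chemokine of lymph node stroma, had 22.9, 21.5, 36.1 and 16.1 in hypoxic tumours, against 299, 441, 47.4 and 281 in normoxic tumours and fell by 3.09 ± 0.68 (adjusted p = 0.00732). Fcer2a, the low-affinity IgE receptor of B cells and follicular dendritic cells, fell by 3.22 ± 0.80. Its value in hypoxic 14 lay below the scaled mean of the negative-control probes. Ltbr, a receptor that organises lymphoid stroma, was at -0.22 ± 0.30 and did not pass.

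Of 17 inhibitory receptors and their ligands 9 fell, or 52.9% against 48% of all genes, and none rose (median -1.41, and -0.29 relative to the median gene). Under a mean signal of 300 it was 9 of 14, against 257 of 414 over the panel. Pdcd1, which encodes PD-1, had 67.8, 77.7, 134 and 57.1 in hypoxic tumours, against 222, 292, 149 and 326 in normoxic tumours. Every hypoxic tumour was below every normoxic one, yet the difference of -1.56 ± 0.65 did not pass (adjusted p = 0.0563). Cd274, which encodes the other PD-1 ligand, PD-L1, had 661, 706, 1244 and 483 in hypoxic tumours, against 2669, 786, 1109 and 1109 in normoxic tumours and did not pass (-0.80 ± 0.54, adjusted p = 0.214). Whether its difference departs from that of Pdcd1lg2, given above, was not tested. Btla, an inhibitory receptor, fell by 3.08 ± 0.70 (adjusted p = 0.00732), and its ligand Tnfrsf14 was at -0.71 ± 0.46 without passing. Cd47, which shields cells from phagocytosis, had 2013, 1913, 2075 and 1893 in hypoxic tumours, against 4191, 1973, 2005 and 2196 in normoxic tumours and did not pass (-0.32 ± 0.30). Of 13 costimulatory genes of the TNF and CD28 families 10 fell, or 76.9% against 48% of all genes. The median was -2.19, and -1.06 relative to the median gene. Under a mean signal of 300 it was 10 of 12 that fell, against 257 of 414 over the panel. Cd40lg, through which helper T cells license other cells, fell by 3.10 ± 0.78 (adjusted p = 0.00812). Tnfsf14, the ligand LIGHT, had 27.8, 34.7, 53.2 and 14.9 in hypoxic tumours, against 586, 304, 79.7 and 242 in normoxic tumours and fell by 2.99 ± 0.71 (adjusted p = 0.00800).

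Of 11 genes of the HIF pathway and of adenosine signalling 5 fell and none rose, a share of 45.5% against 48% of all genes, and the median of -1.23 (-0.11 relative to the median gene) was near that of the panel (-1.27). Vegfa, the vascular growth factor that HIF-1 induces, had 448, 159, 458 and 287 in hypoxic tumours, against 1388, 730.1, 455 and 616 in normoxic tumours. It fell by 1.23 ± 0.41 (adjusted p = 0.0231) and passed in 4 of the 8 fits without 1 tumour. Relative to the median gene it was at -0.11. Hif1a, whose protein is regulated mainly by its breakdown, had 2065, 1714, 2675 and 1638 in hypoxic tumours, against 8261, 2226, 2701 and 2425 in normoxic tumours and did not pass (-0.74 ± 0.42). Tfrc, the transferrin receptor for iron uptake, had 6296, 3179, 5019 and 4651 in hypoxic tumours, against 2947, 2164, 4728 and 3563 in normoxic tumours and was at 0.53 ± 0.39 without passing. The panel holds few of the glycolytic genes that HIF-1 controls: 11 of the 23 genes listed for this pathway were on it. For adenosine, Entpd1, which encodes CD39, had 114, 76.0, 231 and 50.9 in hypoxic tumours, against 842, 370.1, 209.7 and 381 in normoxic tumours and fell by 1.97 ± 0.62 (adjusted p = 0.0186). Adora2a, the adenosine receptor of T cells, fell by 2.54 ± 0.64 (adjusted p = 0.00812).

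Of 18 vessel and endothelial adhesion genes 7 fell, or 38.9% against 48% of all genes. The median of -0.85 turned to 0.27 relative to the median gene. The defining endothelial genes did not pass: Kdr, the main VEGF receptor, was at 0.12, Cdh5, the cadherin of endothelial junctions, at -0.33, and Pecam1 at -0.86. Sele, the adhesion molecule E-selectin, fell by 2.64 ± 0.68 (adjusted p = 0.00839), with 8.99, 3.31, 11.8 and 2.48 in hypoxic tumours, against 64.4, 79.5, 9.34 and 52.1 in normoxic tumours. Its values in hypoxic 14 and 25 lay below the scaled mean of the negative-control probes. Lyve1, a receptor of lymphatic endothelium and of some macrophages, had 121, 164, 319 and 135 in hypoxic tumours, against 1303, 1869, 171 and 1038 in normoxic tumours and fell by 2.24 ± 0.74 (adjusted p = 0.0215). Mcam, an adhesion gene of vessel walls, was at 0.28 ± 0.32. Of 11 matrix and fibroblast genes 4 fell, or 36.4% against 48% of all genes (median -1.25, and -0.13 relative to the median gene). Col3a1, a fibrillar collagen, had 3825, 4824, 5175 and 1602 in hypoxic tumours, against 42912, 22286, 4678 and 16750.1 in normoxic tumours. Normoxic 4, 7 and 21 were far above the other tumours, normoxic 10 was among the hypoxic ones, and the gene fell by 2.23 ± 0.77 (adjusted p = 0.0265). Fap, a protease of activated fibroblasts, fell by 2.08 ± 0.68. Col4a1, a collagen of basement membranes, was at 0.50 ± 0.42, and the cytokine-like matrix protein Spp1 had 20164, 8364, 18805 and 12455 in hypoxic tumours, against 14712, 9659, 19388 and 15393 in normoxic tumours, at -0.03 ± 0.39. Of 9 TGF-beta genes Tgfb3 alone fell (11.1%, against 48% of all genes), by 1.30 ± 0.39 (adjusted p = 0.0158). Tgfb1 was at 0.41 ± 0.49.

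Complement genes fell in 24 of 27 cases (88.9%, against 48% of all genes) and C1qbp rose. The median was -2.20, and -1.08 relative to the median gene. Of the 27, 11 are liver genes that are also in the tissue-restricted list, and each of those fell. Among the other 16, 13 fell (median -1.60). Mbl2, the mannose-binding lectin made by the liver, had 11.4, 1.65, 16.4 and 4.97 in hypoxic tumours, against 72.1, 197, 15.8 and 100.2 in normoxic tumours and fell by 3.20 ± 0.87 (adjusted p = 0.00998). Of 23 Toll-like receptors and adaptors 13 fell, or 56.5% against 48% of all genes, and the median of -1.25 (-0.13 relative to the median gene) was near that of the panel. Tlr6, which pairs with TLR2 for bacterial lipopeptides, had 19.6, 14.9, 53.2 and 23.6 in hypoxic tumours, against 304, 217, 61.8 and 192 in normoxic tumours and fell by 2.71 ± 0.57 (adjusted p = 0.00732). Tlr5, the flagellin receptor, fell by 2.60 ± 0.58, and their shared adaptor Myd88 was at -0.40 ± 0.32 without passing.

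Of 31 NF-kB and MAP kinase genes 2 fell (6.45%, against 48% of all genes) and none rose (median -0.31). Relative to the median gene 9 were higher (median 0.81). With a mean signal of 300 or more none of 19 fell, against 85 of 298 over the panel. Ikbke, a kinase of the interferon and NF-kB pathways, fell by 1.65 ± 0.50 (adjusted p = 0.0160), and Rel, an NF-kB subunit of lymphocytes, by 1.29 ± 0.43 (adjusted p = 0.0236). Dusp4, a phosphatase of MAP kinases, was at 0.66 ± 0.38 without passing. In only 4 genes of the panel (0.562%) did every hypoxic tumour exceed every normoxic one, and none of the 4 passed; Nfkb2, Eef1g and Yy1 were named after their values were seen. Nfkb2, which encodes the NF-kB subunit p52, had 1046, 1752, 968 and 1413 in hypoxic tumours, against 741, 775, 939 and 762 in normoxic tumours (0.65 ± 0.38, adjusted p = 0.151). Myc, the growth-promoting transcription factor, had 1847, 1719, 1504 and 2138 in hypoxic tumours, against 471, 1207, 1487 and 1253 in normoxic tumours (0.82 ± 0.46, adjusted p = 0.143). The others were Eef1g, a subunit of a translation elongation factor and a housekeeping gene of this panel, with 6426, 9189, 6493 and 9370.0 in hypoxic tumours, against 3648, 5401, 6172 and 5932 in normoxic tumours, and Yy1, a transcription factor, at 0.42 ± 0.28.

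Of 20 apoptosis genes 4 fell (20%, against 48% of all genes) and none rose (median -0.37, and 0.76 relative to the median gene). With a mean signal of 300 or more 1 of 11 fell, against 85 of 298 over the panel. Fas, a death receptor, had 80.1, 77.7, 104 and 44.7 in hypoxic tumours, against 537, 240.0, 126 and 226 in normoxic tumours and fell by 1.73 ± 0.49 (adjusted p = 0.0119), and Bcl2, which protects lymphocytes from cell death, fell by 1.86 ± 0.54 (adjusted p = 0.0133). Tnfrsf12a, the receptor Fn14 of injured epithelium and stroma, had 1824, 1538, 1545 and 1508 in hypoxic tumours, against 316, 917, 1951 and 1086 in normoxic tumours. Normoxic 10 was the highest of the 8 tumours and the other 3 normoxic tumours were below every hypoxic one, and the difference of 0.85 ± 0.44 did not pass (adjusted p = 0.110). Of 12 genes of tumour epithelium and proliferation 5 fell (41.7%, against 48% of all genes) and Msln rose. The median was -0.84, and 0.29 relative to the median gene. Besides Cdh1, the falls included Egfr, the epidermal growth factor receptor, which had 58.8, 62.8, 88.1 and 29.8 in hypoxic tumours, against 460.0, 312, 69.0 and 269.9 in normoxic tumours and fell by 2.01 ± 0.65 (adjusted p = 0.0197).

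Ratios of 2 genes within a tumour do not depend on the scaling factor, apart from the 1 added to each signal, which matters for weak genes. In all, 6 pairs were examined without a test. The log2 ratio of Arg1 to Nos2 was 2.46, 1.77, 3.84 and 0.93 in hypoxic tumours, against 7.04, 4.73, 4.68 and 4.13 in normoxic tumours. All hypoxic tumours were below all normoxic ones. The log2 ratio of Cxcl10 to Ifng was 9.05, 9.64, 8.92 and 10.83 in hypoxic tumours, against 3.44, 5.11, 8.67 and 6.64 in normoxic tumours. Here all hypoxic tumours were above, with normoxic 10 the nearest to them. The log2 ratio of Prf1 to Cd3e was 1.52, 1.81, 1.41 and 2.27 in hypoxic tumours, against 0.24, -0.23, 1.08 and -0.14 in normoxic tumours, again without overlap. Ifng and Cd3e have weak signal in hypoxic tumours, which limits the last 2 ratios. Ms4a1 and Foxp3 are weak there as well, which limits the ratios below that hold them. The ratios of Gzmb to Cd3e (2.58, 1.01, 2.43 and 2.75 in hypoxic tumours, against 1.51, 0.92, 2.01 and 1.30 in normoxic tumours), Cd8a to Foxp3 (2.10, 2.30, 3.86 and 2.22 in hypoxic tumours, against 1.01, 3.91, 3.79 and 3.01 in normoxic tumours) and Ms4a1 to Cd3e (-1.72, -4.55, -1.87 and -1.81 in hypoxic tumours, against -0.83, -0.21, -2.45 and -0.61 in normoxic tumours) overlapped between the groups.

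**Figure D5:**
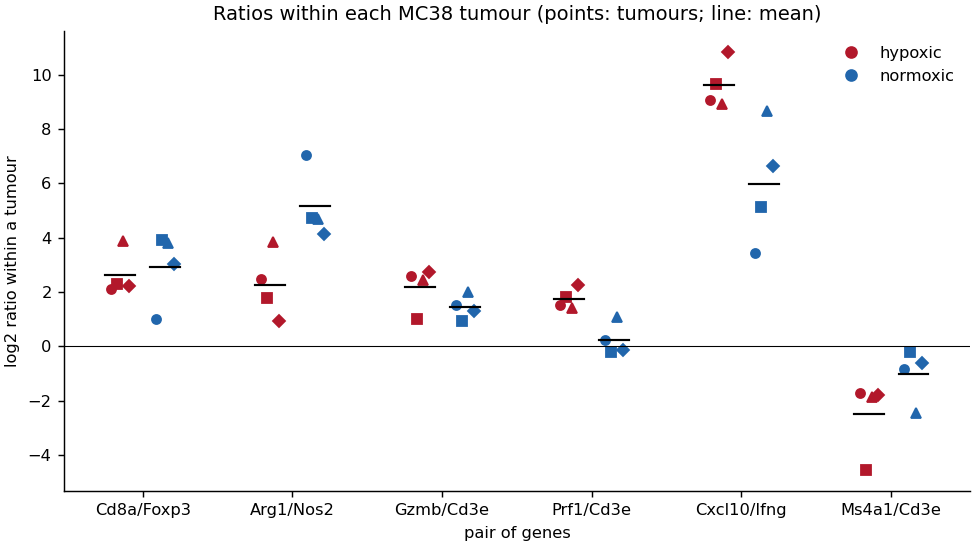
Log2 ratio of 6 gene pairs within each MC38 tumour, hypoxic left of normoxic in each pair, with points for tumours and a line for the group mean. The groups do not overlap for Arg1/Nos2 (0.93 to 3.84 against 4.13 to 7.04), Prf1/Cd3e (1.41 to 2.27 against -0.23 to 1.08) and Cxcl10/Ifng (8.92 to 10.8 against 3.44 to 8.67).

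Whether hypoxia status went with other differences in MC38 than in E0771 was tested for each gene as the difference of the 2 differences. No gene passed (0% of 712 in limma), 133 had a p under 0.05 before adjustment, and the smallest adjusted p was 0.205. In E0771 itself, with 3 hypoxic and 5 normoxic tumours, no gene passed either (0%), 45 had a p under 0.05 before adjustment, the smallest adjusted p was 0.620, and the median of all genes was -0.36. For Chil3 the differences were -5.22 ± 1.04 in MC38 and -0.56 ± 1.08 in E0771, and for Prg2 -3.85 ± 0.80 in MC38 and -0.15 ± 0.83 in E0771 (adjusted p = 0.205 for the difference between lines in both). In E0771 Prg2 averaged 14.1 in hypoxic and 17.9 in normoxic tumours, both below the test level. At such weak signal its E0771 difference cannot show whether Prg2 differed there. The count between lines rested on normoxic 10: without it 132 genes passed. So none of the MC38 differences above can be called particular to this line with all 8 tumours in the fit.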

How the data were processed

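RNA of 16 mouse tumours was measured on the NanoString mouse PanCancer Immune panel, and the 8 MC38 tumours were grouped by the hypoxia status in the labels. The authors' deposited unit is a linear normalized signal. Which software and steps made it is not given in the sources used here. Its values hold 1 factor per tumour (0.657 to 1.65 in MC38) that gives 20 housekeeping genes an equal geometric mean, with values under 1 raised to 1. The 8 negative-control and 6 positive-control probes were left unscaled. Dividing by the factor gave estimated counts (274508 to 890239 per MC38 tumour), which describe depth and enter alternatives only. Intervals for counting error were not computed, and precision is limited by 4 tumours a group.

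From the deposited signal, log2(signal + 1) was fitted in limma 3.58.1 (R 4.3.3; lmFit, eBayes with trend) with the means of 4 groups over all 16 tumours, and Benjamini-Hochberg adjusted p-values were taken over the 712 genes with a mean signal of at least 24.0 (negative-control probes times the factors, mean and 2 SD). The pseudocount of 1 understates differences of weak genes. Lists were described by counts and medians, with no test. Named genes are those that rose, the 12 that fell with the widest gap between groups, 2 genes that fell most and the highest gene of each list, fixed genes of general interest and those of the ratios. This gave 113 genes, and 12 more were named after their values were seen. The members, lists, genes and ratios were all chosen with earlier results of these data known. Of 770 probe names 756 matched a gene symbol of GRCm38.p6, 7 matched a synonym and 7 kept their name. Promoters were found for 99 of the 125 named genes. Alternatives were centring on the median gene, scaling on positive-control probes, other filters, pseudocounts, variance models, background subtraction and leaving tumours out.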

Additional observations from a re-analysis of the deposited data

Results flagged for a closer look

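In 250 sets of 4 tumours, 1 gene in 1 group each, 11 held a tumour whose distance from the other 3 was over the 95% critical value of Dixon's test. Chance gives about 1 such set in 20, so a number like this one is no pattern by itself.

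Normoxic 4 stood apart in 4 of them. It had 53233 of Arg1, the arginase gene, against 2734 to 3969 in the other normoxic tumours, and 8261 of Hif1a, against 2226 to 2701. It had 4191 of Cd47, the phagocytosis shield, against 1973 to 2196, and 73.6 of Klra4, an NK cell receptor, against 182 to 199.7.

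Normoxic 10 was the low tumour in 3 sets. It had 28.7 of Cd2, a T cell adhesion receptor, against 164 to 221 in the other normoxic tumours. Its Cd3e, a T cell receptor chain, was at 79.0, against 132 to 143, and its Gbp2b, an interferon-induced GTPase, at 30.9, against 167 to 208.

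Hypoxic 17 was the high tumour in 2 sets, with 28.3 of Ccl24, the eosinophil chemokine (9.92 to 11.4 in the other hypoxic tumours), and 62.4 of Pdcd1lg2, the PD-L2 gene (13.2 to 14.9). Hypoxic 12 had 1824 of Tnfrsf12a, against 1508 to 1545 in the other hypoxic tumours. Normoxic 21 had 314 of Mcam, against 265 to 267 in the other normoxic tumours.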

How the results depend on the processing

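No paired analysis was possible because the hypoxic and normoxic MC38 tumours share no mouse number. With all 8 tumours 342 genes were lower and 4 higher. Leaving out 1 MC38 tumour gave 171 to 404 lower genes (171 without hypoxic 25, 175 without normoxic 4, 204 without normoxic 7 and 404 without normoxic 10), 0 to 16 higher genes (16 without normoxic 10, otherwise at most 2) and 0 to 132 genes for the difference between lines (132 without normoxic 10). Without normoxic 10 and hypoxic 17, chosen after seeing the data, 408 genes were lower, 12 higher and 162 differed between lines. Without the 5 tumours under 350000 estimated counts, which leaves 2 hypoxic MC38 tumours, no gene was lower or higher by limma (193 lower at an unadjusted p under 0.05). Centring on the median gene gave 115 lower and 75 higher genes, and 209 lower and 0 higher came from scaling by positive-control probes. The higher genes numbered 2 with a mean signal of at least 50, 2 with eBayes without trend, 1 with the 8 MC38 tumours alone and 10 at an adjusted p under 0.10. Counts of lower genes stayed between 234 and 408 with other filters, a pseudocount of 10, other variance models, background subtraction, voom weights (chosen after seeing the data), MC38 alone and an adjusted p under 0.10. The count tests planned on estimated counts were not run, and voom weights stood in for them. Of 125 named genes, 17 turned sign when centred, and none of the 17 had passed as deposited: Gzmb (0.23), Cd274 (0.32), Hif1a and H2-DMb1 (0.38), Fcgr1 (0.40), Tnfrsf14 (0.41), Pou2f2 and Tcf7 (0.56), Flt3l (0.57), Myd88 (0.72), Cd47 (0.80), Ltbr (0.91), Marco (0.97), Prf1 (0.99), Il15 (1.0), Cxcl9 (1.09) and Spp1 (1.10). Scaling on the positive-control probes turned Il15 (0.0017), Cxcl9 (0.097) and Spp1 (0.098). Leaving out 1 MC38 tumour turned the sign in at least 1 fit for Ptgs2 (-0.038 to 0.49), Prf1 (-0.38 to 0.022), Cxcl9 (-0.26 to 0.20), Spp1 (-0.22 to 0.23), Il15 (-0.26 to 0.067), Marco (-0.65 to 0.41) and Ltbr (-0.31 to 0.0074). The causes of these changes were not tested. Of the 80 named genes that passed, 58 did so in each of the 8 fits without 1 MC38 tumour. Weak probes near the negative controls limit hypoxic values most.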

Other observations

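Of 28 interleukins and interleukin receptors outside the lists above, 19 fell (67.9%, against 48% of all genes) and none rose. The median was -1.97, and -0.85 relative to the median gene. Under a mean signal of 300 it was 15 of 21 that fell, against 257 of 414 over the panel. Il21, a cytokine of helper T cells, had 8.99, 9.92, 11.8 and 2.48 in hypoxic tumours, against 76.7, 155, 16.5 and 100.2 in normoxic tumours and fell by 3.03 ± 0.71 on the log2 scale (adjusted p = 0.00793). Il9, a mast cell and helper T cell cytokine, had 9.81, 8.27, 14.5 and 8.69 in hypoxic tumours, against 84.3, 160.5, 23.7 and 114 in normoxic tumours and fell by 2.84 ± 0.61 (adjusted p = 0.00732). In both genes normoxic 10 was the lowest normoxic tumour and still above all hypoxic ones. Il23r, the receptor subunit for IL-23, had 7.35, 6.61, 16.4 and 12.4 in hypoxic tumours, against 61.3, 130.1, 27.3 and 88.2 in normoxic tumours and fell by 2.61 ± 0.63 (adjusted p = 0.00812). Il17rb, the receptor for IL-25, overlapped, since hypoxic 17 was above normoxic 10. It fell by 3.16 ± 0.77 (adjusted p = 0.00812). Il15, which maintains NK cells and memory T cells, was the highest member, with 88.2, 57.9, 80.8 and 46.0 in hypoxic tumours, against 107, 65.1, 71.8 and 53.4 in normoxic tumours, and did not pass (-0.12 ± 0.51, adjusted p = 0.855).

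Of 14 genes of the IL-1 and IL-18 family and their inflammasome, 7 fell (50%, near the 48% of all genes tested) and none rose (median -1.69, and -0.57 relative to the median gene). Nlrp3, the sensor of the inflammasome, had 39.2, 31.4, 71.6 and 21.1 in hypoxic tumours, against 218, 312, 81.2 and 229.8 in normoxic tumours, with no overlap between the labels, and fell by 2.32 ± 0.63 (adjusted p = 0.00998). Il1a, an alarm cytokine, fell by 2.39 ± 0.74 (adjusted p = 0.0177).

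Of 14 integrins 6 fell (42.9%, against 48% of all genes) and none rose (median -1.57, and -0.45 relative to the median gene). Itgae, which holds tissue-resident T cells and some dendritic cells to epithelium, had 25.3, 14.9, 34.2 and 7.45 in hypoxic tumours, against 245, 249, 26.6 and 167 in normoxic tumours. Hypoxic 17 was above normoxic 10, and the other 3 normoxic tumours were far above both. Itgae fell by 2.79 ± 0.70 (adjusted p = 0.00812). Itga2b, the platelet and megakaryocyte integrin, fell by 2.70 ± 0.72 (adjusted p = 0.00920). Itgb4, the integrin that anchors epithelium to its basement membrane, was the highest member, with 46.6, 46.3, 28.3 and 38.5 in hypoxic tumours, against 10.7, 30.4, 28.0 and 22.7 in normoxic tumours, and did not pass (0.84 ± 0.58, adjusted p = 0.228). Egr3, an early response gene of activated lymphocytes, had 13.1, 3.31, 11.2 and 2.48 in hypoxic tumours, against 62.9, 75.2, 24.4 and 49.4 in normoxic tumours and fell by 2.81 ± 0.82 (adjusted p = 0.0132). Ambp, a liver plasma protein gene, had 6.54, 6.61, 10.5 and 7.45 in hypoxic tumours, against 62.9, 142, 17.9 and 65.5 in normoxic tumours and fell by 2.75 ± 0.56 (adjusted p = 0.00732). Cd96, a receptor of T and NK cells, fell by 2.77 ± 0.72 (adjusted p = 0.00853). All the normoxic values of Egr3 and Ambp exceeded all the hypoxic ones, and their hypoxic signal was near that of the negative-control probes.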
